A study of Mus musculus with 10 samples.

Results

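The IgG1 heavy-chain compartment is the set of B cell receptor rearrangements whose transcripts ran into IGHG1, the constant gene of the IgG1 class. Its members were drawn from the productive heavy-chain sequences of 10 mice by 1 rule: an IGHV gene and a constant gene call that named IGHG1 and no other gene. Sequences that shared V gene, J gene and junction nucleotides counted as 1 clonotype, and one found in several mice was given to the mouse with most IGHG1 counts. The rule gave 1184 clonotypes with a deposited count of 169042, out of 275922 heavy-chain clonotypes in all, or 0.429%. Of these, 769 lay in anti-CTLA-4 mice and 415 in isotype mice, and 440 (37.2%) came from a single animal, anti-CTLA-4 mouse 2. The other anti-CTLA-4 mice held 70 (mouse 1), 152 (mouse 3), 33 (mouse 4) and 74 (mouse 5), and the isotype mice 78, 90, 183, 35 and 29, in the order of their replicate numbers.

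All animals were wild-type C57BL/6 mice with the mouse glioma line GL261 implanted in the brain, and the deep cervical lymph nodes, which drain the brain and meninges, were taken on day 20. The groups were 5 mice given an antibody against CTLA-4, an inhibitory receptor of T cells, and 5 mice given an isotype control IgG. Whole node cells went into 1 library per mouse, so the mouse was the replicate, and no group without tumour was analysed here. In bulk libraries, fewer cells of a class and less receptor RNA per cell cannot be told apart.

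In mice, IgG1 is a class to which B cells switch with T cell help, typically under interleukin-4, whereas interferon-gamma favours IgG2a and IgG2c. Switching joins the rearranged V region to a constant gene further along the locus on chromosome 12 and deletes what lies between. Counted from the V genes, IGHG1 stands at position 4, after IGHM, IGHD and IGHG3 and before IGHG2B, IGHG2C, IGHE and IGHA. A cell that has switched to IgG1 can therefore still switch to IgG2, IgE or IgA, and sequential switching through IgG1 is a known route to IgE. In germinal centres the same cells acquire point mutations in their V regions.

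The clonotype with the highest IGHG1 count in each mouse is shown here by its junction, because these sequences carry most of what follows: the sizes of the clones, their partner classes and their recurrence between libraries. The junction runs 5′ to 3′ from the codon of the conserved cysteine to that of the conserved tryptophan. Capitals mark the letters between the end of the V gene alignment and the start of the J gene alignment, which hold the D segment and the added nucleotides.
anti-CTLA-4 mouse 1, IGHV1-69 with IGHJ1: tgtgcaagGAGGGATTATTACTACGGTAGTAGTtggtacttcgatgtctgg
anti-CTLA-4 mouse 2, IGHV1-78 with IGHJ3: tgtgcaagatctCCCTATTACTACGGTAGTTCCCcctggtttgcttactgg
anti-CTLA-4 mouse 3, IGHV14-4 with IGHJ4: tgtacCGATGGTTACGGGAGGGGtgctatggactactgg
anti-CTLA-4 mouse 4, IGHV1-69 with IGHJ1: tgtgcaagaGGATTTTCcgatgtctgg
anti-CTLA-4 mouse 5, IGHV1-62-3 or IGHV1-72 with IGHJ3: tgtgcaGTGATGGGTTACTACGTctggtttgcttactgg
isotype mouse 1, IGHV14-4 with IGHJ3: tgtactacaagtCATtgg
isotype mouse 2, IGHV2-9 with IGHJ1: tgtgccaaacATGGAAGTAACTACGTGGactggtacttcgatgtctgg
isotype mouse 3, IGHV10-1 with IGHJ1: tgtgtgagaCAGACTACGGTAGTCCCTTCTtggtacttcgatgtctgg
isotype mouse 4, IGHV9-3 with IGHJ4: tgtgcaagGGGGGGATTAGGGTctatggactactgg
isotype mouse 5, IGHV1-53 with IGHJ3: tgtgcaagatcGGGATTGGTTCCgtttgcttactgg
Each clonotype was given to 1 mouse, so none could lead in more than 1. Before that step, the IGHV10-1 clonotype of isotype mouse 3 had 3448 IGHG1 counts in isotype mouse 4. The clonotype shown for isotype mouse 4 had 201. The shortest junction, in isotype mouse 1, had 3 letters between V and J and a CDR3 of 4 amino acids.

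Some libraries shared IgG1 clonotypes, which bears on every value per mouse. Of the distinct IgG1 clonotypes, 98 were found in more than 1 mouse, all of them within 1 treatment group and 0 across the groups. Counted by pairs of mice there were 110 such sharings, and 99 of them joined libraries with consecutive numbers. Isotype mouse 4 shared 27 with isotype mouse 3, and anti-CTLA-4 mouse 4 shared 24 with anti-CTLA-4 mouse 3. Giving each clonotype to the mouse with most counts took 94.8% of the IGHG1 counts from isotype mouse 4 (10349 before, 541 after) and 62.7% from anti-CTLA-4 mouse 4 (1044 before, 389 after). It took 10.0% from isotype mouse 2 and at most 2.15% from any of the others. The leading clonotype of isotype mouse 4 differed from a larger clonotype of isotype mouse 3 by 1 substitution, G22T, with positions counted from 1 at the 5′ end of the junction and the base of isotype mouse 3 given first. Capitals mark that position in the following pair.
isotype mouse 4, IGHV9-3 with IGHJ4, IGHG1 count 201: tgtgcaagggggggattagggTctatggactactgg
isotype mouse 3, IGHV9-3 with IGHJ4, IGHG1 count 3133: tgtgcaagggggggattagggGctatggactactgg
Leaving out clonotypes so close to a larger one of another mouse removed a further 15 of the 35 in isotype mouse 4. The clonotypes found in most mice, 3 each, show the uneven counts of this sharing. The leading IGHV1-78 clonotype of anti-CTLA-4 mouse 2 had 25607 IGHG1 counts there and 239 in anti-CTLA-4 mouse 3, and the leading IGHV14-4 clonotype of isotype mouse 1 had 10142 there and 287 in isotype mouse 2. The leading IGHV10-1 clonotype of isotype mouse 3, in contrast, was found in only 1 other mouse but had 3448 counts there (isotype mouse 4) beside 6822. Whether shared clonotypes came from exchange between libraries or from the animals was not tested.

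Each library listed 33568 to 63017 sequences with deposited counts of 382184 to 790139 in sum, of which productive heavy chains took 159157 to 362445. Whether a deposited count stands for a read or for a molecule is not given in the sources used here, so intervals and limits cover counting error only. Another 220 sequences that named IGHG1 together with a further constant gene were not members.

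The first comparison asked how much of the node repertoire was IgG1 after CTLA-4 blockade. Anti-CTLA-4 mouse 2 stood far above all other animals, and the other anti-CTLA-4 mice lay among the isotype mice or just beyond them. Of all heavy-chain clonotypes, IgG1 made up 0.339%, 2.12%, 0.761%, 0.0847% and 0.239% in anti-CTLA-4 mice 1 to 5, against 0.318%, 0.224%, 0.591%, 0.155% and 0.110% in isotype mice 1 to 5. Anti-CTLA-4 mice 2 and 3 were above every isotype mouse and anti-CTLA-4 mouse 4 below every one. The means were 0.709% ± 0.828 in anti-CTLA-4 mice and 0.280% ± 0.191 in isotype mice (SD, n = 5 each), a difference that did not pass (p = 0.302 by a two-sided exact permutation test, 0.952 after Benjamini-Hochberg adjustment over 4 tests). With 5 mice per group the smallest p the test allows is 0.00794. For a single mouse the 95% exact Clopper-Pearson interval was narrow beside this spread, 0.0583% to 0.119% for the 0.0847% of anti-CTLA-4 mouse 4.

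Weighted by deposited counts, IgG1 took 1.66%, 32.3%, 8.74%, 0.214% and 2.58% of the heavy chain in anti-CTLA-4 mice 1 to 5, against 8.48%, 1.79%, 8.45%, 0.367% and 0.176% in isotype mice 1 to 5. Anti-CTLA-4 mice 2 and 3 were above every isotype mouse, mouse 3 by little, and the others lay below the 2 highest isotype mice. Among IgG counts alone, IgG1 took 2.08%, 78.9%, 11.4%, 2.92% and 6.23% in anti-CTLA-4 mice, against 25.5%, 4.78%, 44.2%, 9.12% and 2.52% in isotype mice, so that 4 of the 5 anti-CTLA-4 mice were below 12% while 2 isotype mice were above 25%. The mean share of IgG clonotypes was 26.7% ± 17.3 in anti-CTLA-4 mice and 26.4% ± 7.57 in isotype mice (SD, n = 5 each). None of these 3 measures passed (exact permutation p = 0.476 for heavy-chain counts, p = 0.857 for IgG counts and p = 0.984 for IgG clonotypes, adjusted p of at least 0.952). Without anti-CTLA-4 mouse 2 the difference in heavy-chain clonotypes was 0.0763 percentage points in place of 0.429. The other 3 measures then changed sign, to -0.553, -11.6 and -7.19 percentage points for heavy-chain counts, IgG counts and IgG clonotypes.

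**Figure D1:**
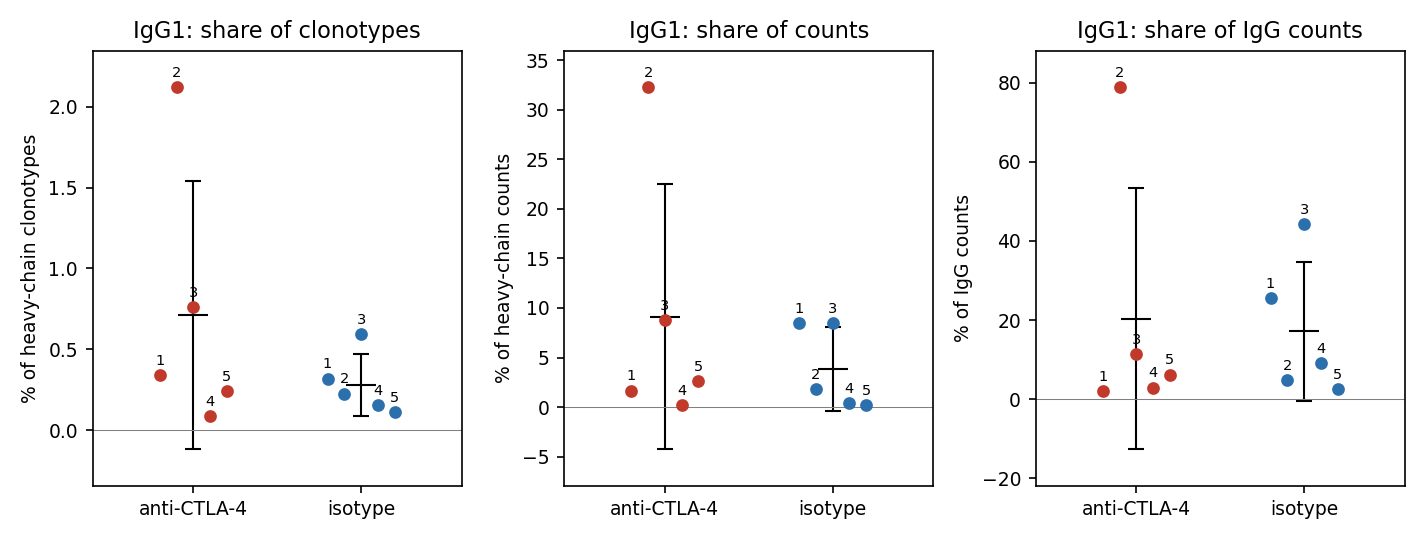
IgG1 share of heavy-chain clonotypes, of heavy-chain counts and of IgG counts in percent, with anti-CTLA-4 mice on the left and isotype mice on the right of each panel. Points are single mice with their replicate number, and black bars give the mean and SD (n = 5 each). Anti-CTLA-4 mouse 2 stands apart in all 3 panels, at 2.12%, 32.3% and 78.9%.

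The IgG1 compartment of each mouse was dominated by a few clones. The leading clonotype held 30.4%, 32.9%, 34.6%, 31.4% and 23.4% of the IGHG1 counts in anti-CTLA-4 mice 1 to 5, against 46.8%, 19.6%, 26.6%, 37.2% and 38.0% in isotype mice 1 to 5. The ranges overlapped, with the isotype mice more widely spread. The 10 largest clonotypes held 83.1% ± 7.99 of the counts in anti-CTLA-4 mice and 90.6% ± 5.43 in isotype mice (SD, n = 5 each). Drawn down to 279 counts, the depth of the smallest compartment, anti-CTLA-4 mice showed 33.2 ± 10.3 clonotypes and isotype mice 25.9 ± 7.03, and evenness was 0.553 ± 0.0642 and 0.533 ± 0.142 in the same order. In the 4 exact permutation tests on clone size the smallest value was p = 0.127, for the 10 largest clonotypes (adjusted p = 0.444). The size of the leading clonotype differed widely, with a count of 25607 for IGHV1-78 in anti-CTLA-4 mouse 2 and 106 for IGHV1-53 in isotype mouse 5.

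Clonotypes of a mouse were joined into lineages at 90% or more junction identity, given equal V gene, J gene and junction length, groups of relatives that may descend from 1 cell. The 1184 clonotypes formed 716 lineages, and 87 lineages of 3 or more clonotypes held 483 of them (40.8%). These larger lineages held 58.5% of the IgG1 clonotypes in isotype mouse 3 and 55.0% in anti-CTLA-4 mouse 2, and between 3.33% and 37.9% in the other mice. The 2 largest were an IGHV9-3 lineage of 32 clonotypes in isotype mouse 3, with an IGHG1 count of 4173, and the IGHV1-78 lineage of 29 clonotypes in anti-CTLA-4 mouse 2, with 26324. These 2 animals also held the most IgG1 clonotypes, while anti-CTLA-4 mouse 3, with the third most, had 27.6% of its clonotypes in such lineages.

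More IgG1 clonotypes carried a further constant gene than IGHG1 alone. IGHG1 was the only constant gene on 508 of the 1184 clonotypes (42.9%), and it had at least as many counts as any other constant gene on 681 (57.5%). By mouse, IGHG1 was the most counted gene, ties included, on 24.3%, 79.5%, 44.1%, 21.2% and 43.2% of IgG1 clonotypes in anti-CTLA-4 mice 1 to 5, against 48.7%, 28.9%, 60.7%, 54.3% and 48.3% in isotype mice 1 to 5. Of the 10 leading clonotypes shown at the start, 4 had IGHG1 as their most counted gene, 2 IGHG2B, 2 IGHE, 1 IGHG2C and 1 IGHA. IGHG1 took 89.0% of the counts of the leading clonotype in isotype mouse 1 and 78.6% in anti-CTLA-4 mouse 2, but 1.74% in isotype mouse 5, where IGHA took 49.7% and IGHG2B 48.4%.

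**Figure D2:**
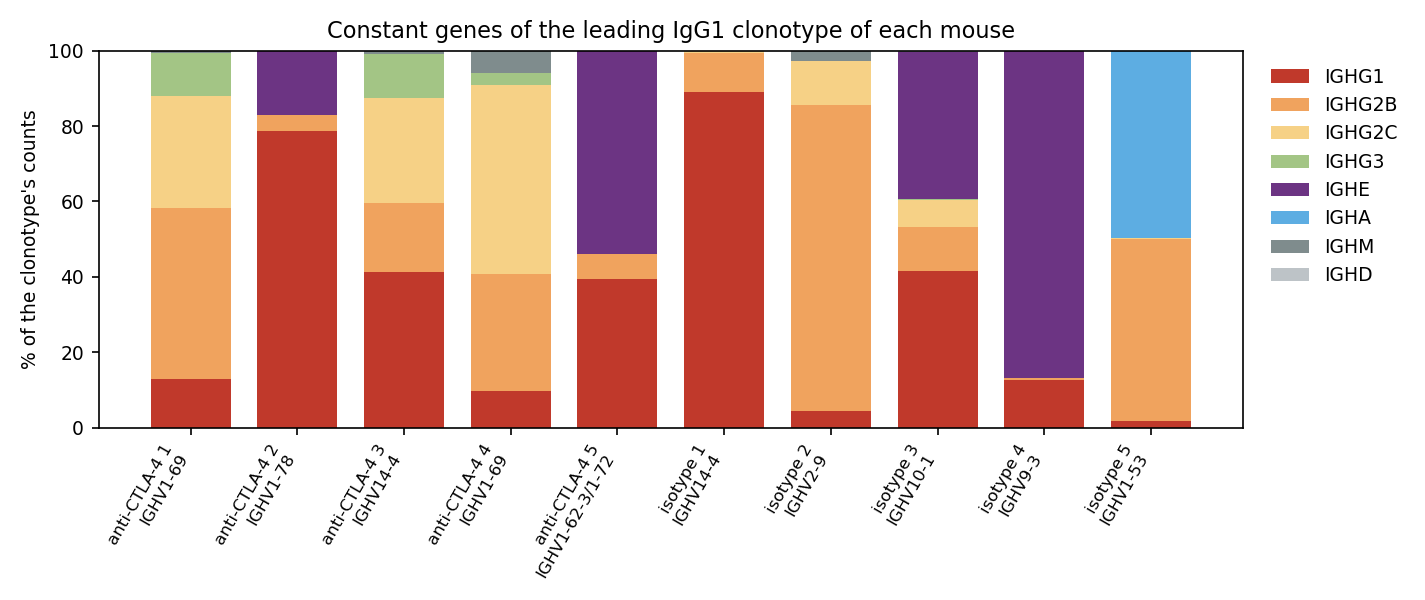
Constant genes of the clonotype with the highest IGHG1 count in each mouse, anti-CTLA-4 mice on the left and isotype mice on the right. Each bar divides the deposited counts of 1 clonotype, in percent, among its constant genes. IGHG1 (red) is the largest part in 4 of 10 bars, and IGHE (purple) is the largest in anti-CTLA-4 mouse 5 (53.7%) and isotype mouse 4 (86.9%).

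Across all members the commonest partner was IGHG2B, the constant gene next to IGHG1 on the locus. It was found on 72.9%, 30.7%, 59.9%, 72.7% and 55.4% of the IgG1 clonotypes of anti-CTLA-4 mice 1 to 5, against 62.8%, 67.8%, 37.2%, 51.4% and 48.3% in isotype mice 1 to 5. The groups overlapped, with the lowest values in anti-CTLA-4 mouse 2 and isotype mouse 3, which held the most IgG1 clonotypes. IGHG2C was found on 37.2% ± 15.4 of IgG1 clonotypes in anti-CTLA-4 mice and 26.8% ± 15.0 in isotype mice, IGHG3 on 23.2% ± 12.6 and 14.1% ± 11.5, and IGHA, the mucosal class, on 7.30% ± 5.33 and 10.5% ± 7.05, with anti-CTLA-4 mice first (SD, n = 5 each). None of these 4 shares passed (exact permutation p = 0.254 to p = 0.611, adjusted p of at least 0.631 over 6 tests).

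IGHM or IGHD, the constant genes used before switching, were found on 47.1%, 29.3%, 46.1%, 30.3% and 35.1% of IgG1 clonotypes in anti-CTLA-4 mice 1 to 5, against 26.9%, 42.2%, 19.7%, 5.71% and 13.8% in isotype mice 1 to 5. All anti-CTLA-4 mice were above 4 of the 5 isotype mice, and isotype mouse 2 lay inside the anti-CTLA-4 range. The means were 37.6% ± 8.52 in anti-CTLA-4 mice and 21.7% ± 13.9 in isotype mice (SD, n = 5 each), a difference of 15.9 percentage points that did not pass (exact permutation p = 0.0635, two-sided, adjusted p = 0.381 for 6 tests). Without isotype mouse 2 the difference was 21.1 percentage points (exact permutation p = 0.00794, adjusted p = 0.0476). Without anti-CTLA-4 mouse 1 it was 13.5 (exact permutation p = 0.119, adjusted p = 0.714), and leaving out single mice took it as low as 11.9. With clonotypes of 1 count left out it was 24.7 (exact permutation p = 0.0397, adjusted p = 0.238) and 21.8 with lineages (p = 0.0476, adjusted p = 0.286). Within the mice, IgG1 clonotypes that also had IGHM or IGHD counts carried fewer mutations, as a description: their pooled mean was 0.227 V mismatches per 100 nucleotides, against 0.651 in the clonotypes without, and it was the lower of the pair in 10 of 10 mice. They were also larger, at a pooled median IGHG1 count of 10 against 2, and the 2 sets were not compared at equal clone size.

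**Figure D3:**
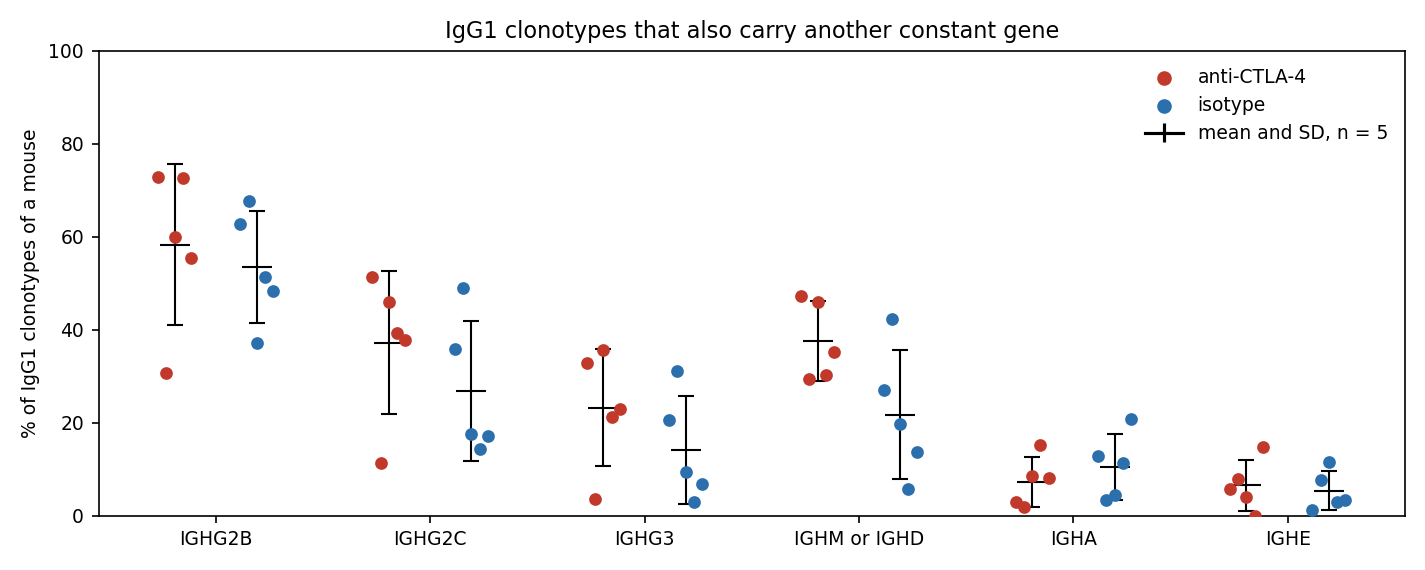
Share of the IgG1 clonotypes of each mouse, in percent, that also carried counts of another constant gene. Red points on the left of each pair are anti-CTLA-4 mice and blue points on the right isotype mice, and bars give the mean and SD (n = 5 each). IGHG2B is the most frequent partner and IGHE or IGHA the least frequent, and the group means lie furthest apart for IGHM or IGHD, at 37.6% in anti-CTLA-4 mice and 21.7% in isotype mice, where the points still overlap.

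How far constant gene calls separate identical V regions was looked at in the largest clones. All 31 IgG1 clonotypes with an IGHG1 count of at least 1000 also carried IGHG2B, at a lowest share of 0.624% and a median of 10.5% of their IGHG1 and IGHG2B counts together. All 37 single IgG1 sequences with such a count had an identical copy called IGHG2B, and 24 of them one called IGHE. In the other direction, all 97 clonotypes with an IgG2 count of at least 1000 carried some IGHG1, at a median of 2.66% of their IGHG1 and IgG2 counts together. Whether small partner counts stem from switching in the clone, from the calls or from template exchange in the library was not tested. With a partner counted only from 10% of the IGHG1 count upwards, no class share passed either.

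IgE was a partner of IgG1 in 9 of the 10 mice. IGHE counts were found on 4 of 70, 35 of 440, 6 of 152, 0 of 33 and 11 of 74 IgG1 clonotypes in anti-CTLA-4 mice 1 to 5, which is 5.71%, 7.95%, 3.95%, 0% and 14.9%. In isotype mice 1 to 5 they were found on 1 of 78, 7 of 90, 21 of 183, 1 of 35 and 1 of 29, which is 1.28%, 7.78%, 11.5%, 2.86% and 3.45%. The 1 such clonotype of isotype mouse 4 was the one that differs by G22T from a larger clonotype of isotype mouse 3 and shown beside it, so the count of 9 mice includes a mouse in which sharing between libraries was not tested. Anti-CTLA-4 mouse 4 had 0 IgE clonotypes, with or without IGHG1, once each was given to the mouse with most IGHE counts. For IgG1, 0 of 33 allows a share of up to 9.09% by a floor of 3 counts. The means of 6.50% ± 5.51 in anti-CTLA-4 mice and 5.37% ± 4.18 in isotype mice (SD, n = 5 each) did not differ beyond the spread between mice (exact permutation p = 0.722, adjusted p = 0.722). Without anti-CTLA-4 mouse 5 the difference was -0.964 percentage points in place of 1.13.

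Most of the IgE transcript lay on clonotypes that also held IGHG1. Of 273 clonotypes with IGHE in the series, 87 (31.9%) also held IGHG1, but these carried 104599 of the 106697 IGHE counts (98.0%). In the 9 mice with IgE, the share of IGHE counts on IgG1 clonotypes was 72.7%, 98.97%, 52.6% and 96.1% in anti-CTLA-4 mice 1, 2, 3 and 5, against 98.96%, 96.5%, 98.3%, 99.4% and 99.2% in isotype mice 1 to 5. The 2 low shares rested on few counts, 22 IGHE counts in all in anti-CTLA-4 mouse 1 and 363 in anti-CTLA-4 mouse 3. These 87 clonotypes were given to mice by IGHE counts. Given by IGHG1 counts there were also 87, but 35 in place of 34 in anti-CTLA-4 mouse 2 and 21 in place of 22 in isotype mouse 3. On 53 of the 87 by IGHG1 counts, the IGHE count exceeded the IGHG1 count. The IgG1 clonotype with most IGHE in each of the 9 mice with IgE also held IGHG2B, from 1 count in isotype mouse 5 to 6479 in anti-CTLA-4 mouse 1. The share of IGHE counts on clonotypes with IGHG2B was not computed.

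The share with IGHE grew with the size of the IgG1 clone, as a description over clonotypes and not over mice. It was 3.02% of 828 clonotypes with an IGHG1 count of 1 to 9, 7.34% of 218 with 10 to 99, and 33.3% of 138 with 100 or more. The rise was not particular to IGHE, since the shares with IGHG2B, IGHG2C, IGHG3 and IGHM or IGHD rose over these size classes too. For IGHG2C they were 15.6%, 39.9% and 68.8%. The share with IGHA did not rise steadily, at 3.86%, 11.01% and 6.52%. In the largest size class the share with IGHE was 31.1% in anti-CTLA-4 mice (103 clonotypes) and 40% in isotype mice (35 clonotypes). Among clonotypes with a count of at least 100 in their own class but no IGHG1, IGHE was found on 2 of 64 IgG2 clonotypes (3.13%) and 1 of 397 IgA clonotypes (0.252%). The sets were uneven, since all 97 clonotypes with an IgG2 count of at least 1000 carried IGHG1 and so were not among the 64. The IgG1 side kept its clonotypes with IGHG2B, 98.6% of the 138 largest. A larger clone offers more counts in which a partner can be seen, and depth was not equalised between these classes.

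Within each mouse the share with IGHE was then compared between IgG1 clonotypes and clonotypes with IGHG2B or IGHG2C but no IGHG1, of which there were 2379. It was higher in IgG1 in 9 of 10 mice and lower in 0, with anti-CTLA-4 mouse 4 at 0 in both. The IgG1 shares are those given for each mouse, and the IgG2 shares were 0%, 0.709%, 0%, 0% and 1.20% in anti-CTLA-4 mice 1 to 5 and 0%, 0.702%, 2.58%, 1.32% and 0% in isotype mice 1 to 5. The means were 5.93% ± 4.65 in IgG1 and 0.651% ± 0.857 in IgG2 (SD, n = 10), and the difference of 5.28 percentage points passed (two-sided exact sign-flip permutation p = 0.00391, adjusted p = 0.00502 over 9 tests). The smallest exact sign-flip p that 10 mice allow is 0.00195, but with anti-CTLA-4 mouse 4 at a difference of 0 it is 0.00391 here. Without isotype mouse 4 the difference was 5.70 percentage points (exact sign-flip p = 0.00781). It also passed when each IgG clonotype was assigned to the IgG gene with most counts (4.49 percentage points, adjusted p = 0.00879) and among clonotypes with a count of at least 10 (14.7 percentage points, adjusted p = 0.0117). The difference between IgG1 and IgG2 averaged 6.11 percentage points in anti-CTLA-4 mice and 4.45 in isotype mice, and this treatment contrast did not pass (exact permutation p = 0.579, n = 5 each, adjusted p = 0.603 over 5 tests).

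**Figure D4:**
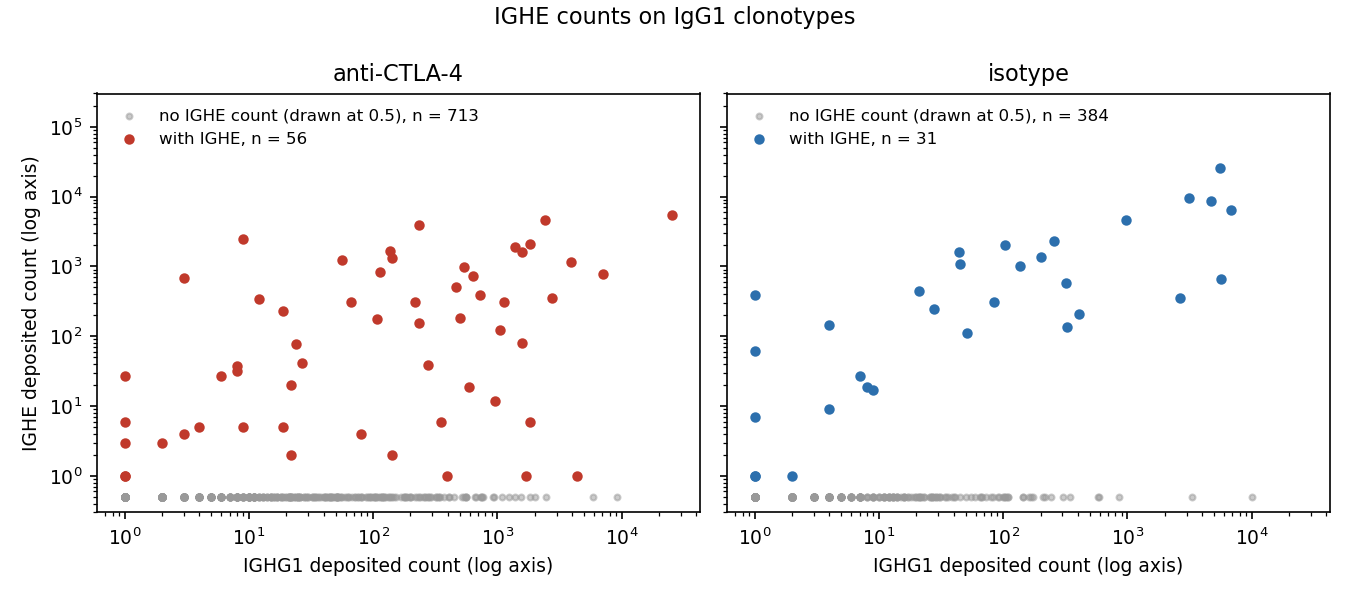
IGHE count against IGHG1 count of each IgG1 clonotype, both on log axes, with anti-CTLA-4 mice on the left and isotype mice on the right. Coloured points are clonotypes with IGHE (56 and 31), and grey points at the foot are clonotypes without. Clonotypes with IGHE occur at low and high IGHG1 counts and take up a larger part of the points at high counts.

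The IgG1 clonotypes with most IGHE in each mouse are shown next, for 5 mice. Clonotypes without IGHG1 were not considered for this choice. Anti-CTLA-4 mice 1 and 2 and isotype mouse 4 are not repeated, since their leading IgG1 clonotypes were also those with most IGHE, at 6, 5513 and 1386 counts. In isotype mouse 1 it was the second largest IgG1 clonotype, of IGHV8-12, with 666 IGHE counts beside 5648 of IGHG1. Capitals again mark the letters between V and J.
anti-CTLA-4 mouse 3, IGHV1-9 with IGHJ1: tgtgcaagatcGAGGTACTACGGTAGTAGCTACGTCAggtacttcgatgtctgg
anti-CTLA-4 mouse 5, IGHV5-9 with IGHJ4: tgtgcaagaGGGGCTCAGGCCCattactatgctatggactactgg
isotype mouse 2, IGHV1-50 with IGHJ4: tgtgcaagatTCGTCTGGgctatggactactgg
isotype mouse 3, IGHV1-47 with IGHJ3: tgtgcaTTACTACggtttgcttactgg
isotype mouse 5, IGHV1-64 with IGHJ1: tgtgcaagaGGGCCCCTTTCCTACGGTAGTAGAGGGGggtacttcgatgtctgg
The IGHV1-47 clone of isotype mouse 3 was the largest, with 26045 IGHE counts beside 5587 of IGHG1 and 1218 of IGHG2B. In anti-CTLA-4 mouse 5 the IGHV5-9 clone had 2495 IGHE counts beside 9 of IGHG1. The IGHV1-9 clone of anti-CTLA-4 mouse 3 ran the other way, with 124 IGHE counts beside 1041 of IGHG1 and 3629 of IGHG2C. In isotype mouse 2 the IGHV1-50 clone had 1028 IGHE counts beside 136 of IGHG1, and in isotype mouse 5 the IGHV1-64 clone had 1608 beside 44. IGHE was thus above IGHG1 in 4 of these 5 clones. 

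Anti-CTLA-4 mouse 5 showed the same kind of clone more than once. Its leading IGHV1-62-3 or IGHV1-72 clonotype had 1887 IGHE counts beside 1387 of IGHG1, an IGHV1-19 clonotype 727 beside 641, and an IGHV5-4 clonotype 995 beside 539. In isotype mouse 3 all of the 5 largest IgG1 clonotypes held IGHE: the leading IGHV10-1 clonotype 6418 beside 6822 of IGHG1, 2 IGHV1-19 clonotypes 8723 beside 4713 and 352 beside 2635, an IGHV9-3 clonotype 9466 beside 3133, and the IGHV1-47 clone already shown. In anti-CTLA-4 mouse 2 the 5 largest held IGHE too, but IGHG1 was ahead in each, with 776 beside 7035 in IGHV14-1, 1 beside 4405 in IGHV1-50, 1161 beside 3931 in IGHV1-55 and 351 beside 2740 in IGHV1-81, after the leading IGHV1-78 clonotype. Isotype mouse 3 alone held 64274 of the 106697 IGHE counts, and IGHE took 39.5% of all counts on its IgG1 clonotypes.

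Somatic hypermutation was measured in the most counted sequence of each clonotype, by its mismatches to germline V. Of the 1184 IgG1 clonotypes, 602 had 0 V mismatches, 343 had 1 or 2, 147 had 3 to 5 and 92 had 6 or more. The mean frequency was 0.788, 0.527, 0.356, 0.458 and 0.495 mismatches per 100 V nucleotides in anti-CTLA-4 mice 1 to 5, against 0.426, 0.401, 0.581, 0.581 and 0.891 in isotype mice 1 to 5. The groups overlapped, at 0.525 ± 0.161 in anti-CTLA-4 mice and 0.576 ± 0.195 in isotype mice (SD, n = 5 each; exact permutation p = 0.627). Without isotype mouse 5 the difference changed sign, to 0.0275 in place of -0.0512. With clonotypes of 1 count left out it was -0.168 (exact permutation p = 0.0714, adjusted p = 0.143) and -0.165 weighted by count (p = 0.238, adjusted p = 0.434).

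Clonotypes with 0 V mismatches made up 60%, 45.7%, 67.8%, 54.5% and 56.8% of IgG1 in anti-CTLA-4 mice 1 to 5, against 56.4%, 60%, 39.3%, 45.7% and 34.5% in isotype mice 1 to 5. Anti-CTLA-4 mouse 3 alone was above every isotype mouse. The means were 56.9% ± 8.05 in anti-CTLA-4 mice and 47.2% ± 10.9 in isotype mice (SD, n = 5 each; exact permutation p = 0.159, adjusted p = 0.556 over 4 tests). Hotspot positions (C in WRC or G in GYW), the preferred targets of the mutating enzyme AID, held 40.6% ± 9.54 of the IgG1 mismatches in anti-CTLA-4 mice and 38.1% ± 5.60 in isotype mice, against 14.4% of the germline positions. In CDR1 and CDR2, the loops that touch antigen, 83.1% ± 5.68 of mismatches changed the amino acid in anti-CTLA-4 mice and 78.2% ± 7.60 in isotype mice (SD, n = 5 each). In framework regions it was 69.5% and 71.2% in the same order, pooled over the clonotypes of each group. No share expected without selection was computed. Neither the hotspot share nor the CDR share passed between treatments (exact permutation p = 0.619 and p = 0.278).

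The large IgG1 clones were the least mutated. Of the 10 most counted IgG1 clonotypes of each mouse, 100 in all, 80 had 0 V mismatches, and so did 6 of the 10 leading ones. In 2 of the 3 leading clonotypes with 1 mismatch the V gene was IGHV1-69, whose IgM clonotypes had a median of 1 mismatch too. Clonotypes with an IGHG1 count of 100 or more averaged 0.155 mismatches per 100 nucleotides with 84.1% unmutated, those with 10 to 99 counts 0.275 with 76.6%, and those with 1 to 9 counts 0.644 with 38.5%. The same order held outside IgG1. In these size classes, IgG2 clonotypes without IGHG1 averaged 0.346, 0.464 and 0.801, and IgA clonotypes without IGHG1 0.640, 0.855 and 1.02. IgG1 clonotypes with IGHE averaged 0.219, and those without it 0.543, lower with IGHE in 6 of the 9 mice with IgE and higher in isotype mice 2, 4 and 5. Clonotypes with IGHE were also larger, at a pooled median IGHG1 count of 114 against 2. These are descriptions over clonotypes, many of them related.

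Mutated IgG1 clones of some size did occur. The one with the highest mismatch frequency among those with a count of at least 100 and a single V gene name was an IGHV10-3 clonotype of isotype mouse 3, picked after its values were seen. It had an IGHG1 count of 103 with 7 of IGHG2B, and 8 mismatches over 301 V nucleotides, 7 of them in framework regions and 1 in CDR2. Its V region is printed to show how such mutations are spread, with the letters that differ from the germline gene in capitals.
isotype mouse 3, IGHV10-3, first 300 bases: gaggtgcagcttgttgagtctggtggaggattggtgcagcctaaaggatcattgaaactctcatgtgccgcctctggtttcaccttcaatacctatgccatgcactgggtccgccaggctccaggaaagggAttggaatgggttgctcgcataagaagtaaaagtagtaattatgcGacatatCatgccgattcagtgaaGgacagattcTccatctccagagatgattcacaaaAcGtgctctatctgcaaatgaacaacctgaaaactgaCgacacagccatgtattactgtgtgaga
IgM clonotypes of IGHV10-3 had a median of 0 mismatches. Among IgG1 clonotypes with a count of at least 10, the most mutated of each mouse had 1 to 11 mismatches, the highest being an IGHV14-1 clonotype of anti-CTLA-4 mouse 1 with an IGHG1 count of 15. The most mutated IgG1 clonotypes with a count of at least 10 in anti-CTLA-4 mice 2 and 3 carried 8 mismatches each under a joint IGHV14-1 and IGHV14-2 call. Joint calls, 88 of the 1184 clonotypes, averaged 1.18 mismatches per 100 nucleotides and single-gene calls 0.466, and IgM clonotypes of that same joint call had a mean of 3.55 mismatches and a median of 1. How far the joint call adds to the mismatches of these 2 was not tested.

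Set beside clonotypes with IgM or IgD alone in the same mice, IgG1 clonotypes were more mutated and larger. They carried 0.550 ± 0.171 mismatches per 100 nucleotides against 0.130 ± 0.0123, and 52.1% ± 10.4 were unmutated against 82.3% ± 1.12 (SD, n = 10). The mean log2 count was 2.43 ± 0.56 in IgG1 and 0.44 ± 0.17 in IgM or IgD alone. All 3 differences had the same direction in 10 of 10 mice and passed (exact sign-flip permutation p = 0.00195, adjusted p = 0.00439 for each). Among clonotypes with a count of at least 10 the mismatch difference was 0.0620 in place of 0.420 and did not pass (adjusted p = 0.354).

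Against IgG2 clonotypes without IGHG1, the IgG1 clonotypes were less mutated, at 0.550 ± 0.171 against 0.796 ± 0.240 mismatches per 100 nucleotides (lower in 9 of 10 mice), and more often unmutated, at 52.1% ± 10.4 against 36.4% ± 6.49 (SD, n = 10; higher in 9 of 10). Both passed (exact sign-flip permutation p = 0.00391, adjusted p = 0.00502), and isotype mouse 3 was the exception in both. The mean log2 count was higher in IgG1 in 10 of 10 mice, by 0.88 (exact sign-flip p = 0.00195, adjusted p = 0.00439). These differences depended on how clonotypes with both genes were placed, and all of the 97 largest IgG2 clonotypes held some IGHG1. With each clonotype assigned to the IgG gene with most counts, the mismatch difference was -0.129 (adjusted p = 0.302) and that in unmutated clonotypes 3.86 percentage points (adjusted p = 0.369), and the difference in mean log2 count changed sign, to -0.69 (adjusted p = 0.0141). No treatment contrast of the IgG1 minus IgG2 differences passed (exact permutation, n = 5 each, adjusted p = 0.603 for each of 5).

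**Figure D5:**
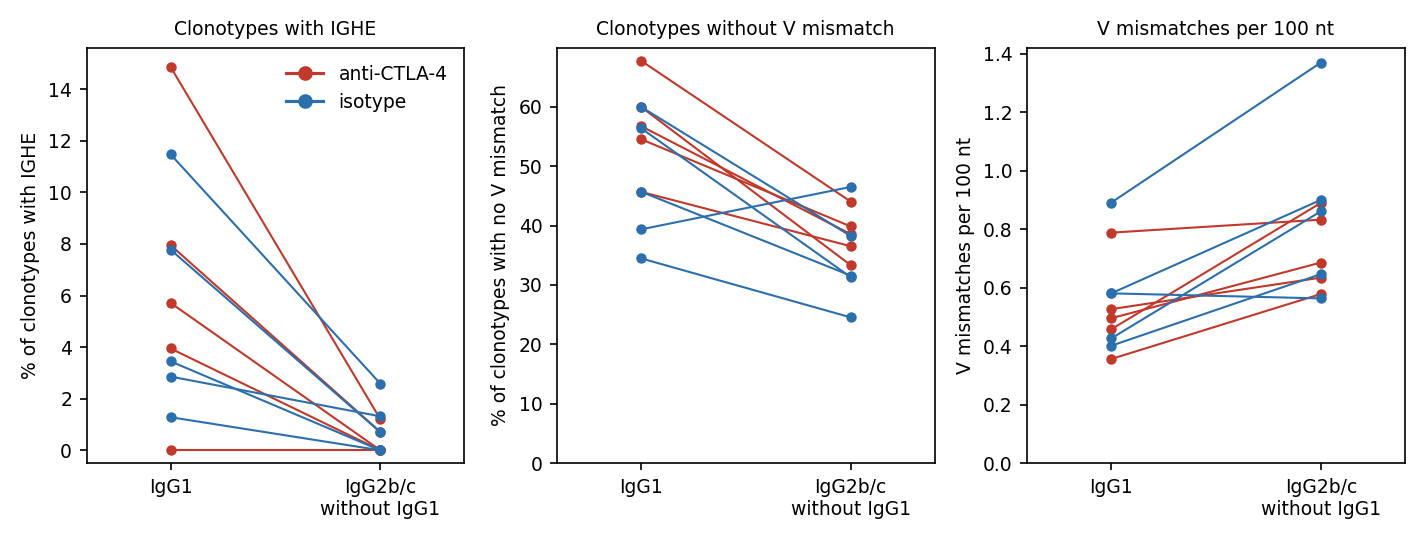
IgG1 clonotypes (left of each panel) and IgG2b or IgG2c clonotypes without IgG1 (right) of the same mouse, joined by a line, red for anti-CTLA-4 and blue for isotype mice. The panels give the percent with IGHE, the percent with 0 V mismatches and the V mismatches per 100 nucleotides. The share with IGHE is higher in IgG1 in 9 of 10 mice, and isotype mouse 3 alone runs against the other 9 in the other panels.

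CDR3, the loop formed by the junction and the most variable part of the antibody, gave the only measures of IgG1 that passed a test between treatments. In this family of 2 measures CDR3 was longer and more negatively charged in anti-CTLA-4 mice. Adjustment within the family left the exact permutation p = 0.0317 of both unchanged, and no adjustment over all families of measures was made. Its mean length was 12.1, 11.7, 12.2, 11.8 and 11.96 amino acids in anti-CTLA-4 mice 1 to 5, against 11.4, 11.8, 11.3, 11.8 and 11.6 in isotype mice 1 to 5. Anti-CTLA-4 mice other than mouse 2 were above every isotype mouse. The means were 11.95 ± 0.181 in anti-CTLA-4 mice and 11.57 ± 0.232 in isotype mice (SD, n = 5 each; exact permutation p = 0.0317, two-sided, adjusted p = 0.0317 for 2 tests). CDR3 lengths ran from 3 to 20 amino acids over all members, with a median of 12 in both groups.

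The mean net charge of CDR3, counted as basic minus acidic residues, was -0.271, -0.358, -0.480, -0.303 and -0.527 in anti-CTLA-4 mice 1 to 5, against -0.0519, -0.289, -0.301, 0.0571 and 0.103 in isotype mice 1 to 5. Anti-CTLA-4 mice other than mouse 1 were below every isotype mouse. The means were -0.388 ± 0.111 in anti-CTLA-4 mice and -0.0962 ± 0.190 in isotype mice (SD, n = 5 each; two-sided exact permutation p = 0.0317, adjusted p = 0.0317).

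Both CDR3 calls depended on the processing and on single mice. With lineages in place of clonotypes the length difference was 0.158 amino acids in place of 0.385 (adjusted p = 0.627), while the charge difference kept its call at -0.272 (adjusted p = 0.0476). With a count of at least 2, neither passed (0.190 amino acids, adjusted p = 0.222, and a charge of -0.332, adjusted p = 0.143). The length call was also lost with weighting by count (0.478, adjusted p = 0.460), without clonotypes close to a larger one of another mouse (0.242, adjusted p = 0.238), and without any one of anti-CTLA-4 mice 1, 3 and 5 or isotype mice 1, 3 and 5 (0.307 to 0.390, adjusted p of 0.0556 to 0.0714). The charge call was lost without any one of anti-CTLA-4 mice 1, 2, 3 and 5 or isotype mice 1 and 5 (-0.321 to -0.242, adjusted p of 0.0556 to 0.0714). Within mice, the CDR3 length difference of IgG1 from IgG2 without IgG1 and from IgM or IgD alone did not pass (0.0159 and -0.0346 amino acids, exact sign-flip p = 0.924 and p = 0.707, n = 10).

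The V genes of IgG1 clonotypes were counted last. The most used were IGHV9-3 at 8.10% on average over the mice, IGHV1-26 at 5.58%, IGHV14-4 at 4.07%, the unseparated pair IGHV1-62-3 and IGHV1-72 at 4.02%, and IGHV1-19 at 3.51%. IGHV1-72 is known from the response of C57BL/6 mice to nitrophenyl haptens, but the calls mostly did not part it from IGHV1-62-3. The joint call was on 29 IgG1 clonotypes and IGHV1-72 alone on 1. On a list of 4 V genes typical of B-1 cells, a self-renewing B cell lineage, IGHV11-1, IGHV11-2 and IGHV12-3 were found on 0 IgG1 clonotypes and IGHV7-1 on 1. The 4 genes together made up 0.0845% of IgG1 clonotypes and 0.365% of all heavy-chain clonotypes, numbers too small for a comparison. The IGHV1 family made up 63.1% ± 8.58 of IgG1 clonotypes in anti-CTLA-4 mice and 56.7% ± 15.1 in isotype mice (SD, n = 5 each), IGHV14 11.4% ± 10.6 and 8.31% ± 5.28, IGHV9 7.19% ± 4.40 and 11.8% ± 8.68, and IGHV10 0.640% ± 0.695 and 5.14% ± 6.36, in the same order. Averaged over all 10 mice, IGHV9 and IGHV14 made up 9.52% and 9.87% of IgG1 clonotypes, and 5.97% and 6.21% of all heavy-chain clonotypes, with IgG1 above in 6 of 10 mice for each. Single lineages made up part of these numbers. In isotype mouse 3, 1 lineage held 32 of the 82 IGHV9-3 clonotypes of all mice, and another held 17 of the 32 IGHV10-1 clonotypes. The family shares were not tested.

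Between treatments 37 V genes with at least 10 IgG1 clonotypes were tested, and 0 passed edgeR's quasi-likelihood test at an adjusted p of 0.05, a called share of 0%. Before adjustment 4 had p under 0.05 with edgeR and 3 with DESeq2, which called 0 as well. The smallest p belonged to IGHV1-82, with 4.15% ± 4.21 of IgG1 clonotypes in anti-CTLA-4 mice and 0.256% ± 0.573 in isotype mice (SD, n = 5 each), a log2 fold change of 3.92 with a standard error of 1.39 (edgeR adjusted p = 0.195). IGHV14-1 (log2 fold change 3.43) and IGHV1-9 (2.50) were the next in that direction. In the other direction stood IGHV10-1 (-2.48), IGHV1-22 (-1.97) and IGHV1-19 (-1.55), the first with an edgeR adjusted p = 0.354, like IGHV14-1 and IGHV1-9. The 5 most used genes had log2 fold changes of -1.55 to 0.26 with edgeR adjusted p values of at least 0.721.

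In each mouse the V genes of IgG1 were also set against those of IgG2 without IgG1, with the mouse as a term. Of 64 genes tested, 0 passed the edgeR test, a called share of 0%, with 6 at an unadjusted p under 0.05. IGHV1-5 had the smallest p, with 11 IgG1 and 110 IgG2 clonotypes (log2 fold change -1.78, standard error 0.63, edgeR adjusted p = 0.272). It was the single gene to pass without isotype mouse 3 (-2.55, edgeR adjusted p = 0.00835). IGHV1-58 (-2.77) and IGHV1-64 (-1.34) were next in that direction, and IGHV1-47 (2.25), IGHV14-1 (1.30) and IGHV1-78 (1.17) in the other. DESeq2 called 1 gene, IGHV1-47 (log2 fold change 2.49, DESeq2 adjusted p = 0.00102), with 10 genes under an unadjusted p of 0.05. Of its 30 IgG1 clonotypes 15 came from isotype mouse 3 and 13 from anti-CTLA-4 mouse 2, and each of these mice held a lineage of at least 12 IGHV1-47 clonotypes.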

How the data were processed

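Receptor transcripts of deep cervical node cells were sequenced in 10 mice with a commercial kit that uses molecular identifiers (UMIs), per the labels' protocols. The authors deposited 1 AIRR table per mouse with gene calls, germline alignments and a whole-number count per sequence, per the file headers. Not given in the sources used here are the aligner, the germline set and how UMIs were treated. Productive sequences with an IGHV call and IGHG1 as the only constant gene were kept, and joint V calls stayed joint names. A clonotype with equal counts in several mice was left out (2 cases). V mismatches were counted over at least 200 aligned nucleotides without gaps. The members and lists were chosen with earlier results of these data known.

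Each mouse gave 1 value per measure. Groups came from the treatment in the sample titles. Treatments were compared by a two-sided exact permutation test over 252 reassignments, adjusted by Benjamini-Hochberg in families of 4 composition, 4 mutation, 2 CDR3, 4 clone size and 6 class sharing measures, and classes within mice by an exact sign-flip test over 1024 sign assignments, adjusted over 9. V genes were tested on clonotype numbers with edgeR 4.0.16 (glmQLFit, glmQLFTest, TMM) and DESeq2 1.42.0 in R 4.3.3, checked on simulated data. The planned filter, filterByExpr, left 0 V genes in the treatment test, so a minimum of 10 clonotypes over all columns replaced it. The F statistic gave the standard error of each log2 fold change. All 78 V gene names matched the GRCm38.p6 gene table, which also gave the order of the constant genes. Python 3.11.15, numpy 2.4.6, pandas 2.3.3 and scipy 1.17.1 were used. Alternatives were a minimum count of 2, lineages, weighting by count, clonotypes kept in every mouse, V positions mismatched in over 50% of IgM clonotypes of a V gene left out, partner classes with at least 2 counts, no TMM, no filter, DESeq2, the replicate number as a block, and leaving out each mouse in turn. Chosen after seeing the data were partner classes from 10% of the IGHG1 count, joint V calls left out, clonotypes close to a larger one of another mouse left out, sets by the IgG gene with most counts, the strain positions, counts of at least 2 or 10 and clonotypes kept in every mouse for the within-mouse tests, and lineages for V genes. Named V genes were those past the threshold, or the 3 with the smallest p per direction where fewer passed, and the 5 most used. Named IgG1 clonotypes were, in each mouse, the leading one, the one with most IGHE and the most mutated one with a count of at least 10, and up to 5 found in most mice.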

Additional observations from a re-analysis of the deposited data

Results flagged for a closer look

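In 3 of 58 groups of 5 mice that were examined, 1 mouse lay so far from the others that its gap to the nearest exceeded Dixon's 95% critical value of 0.71 of the range. Chance marks about 1 in 20 such groups. All 3 were anti-CTLA-4 mouse 2: its IgG1 share of heavy-chain counts was 32.3%, with 8.74% in the nearest mouse of its group, its share of IgG clonotypes 56.6% with 25.4% in the nearest, and its share of IgG counts 78.9% with 11.4%.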

How the results depend on the processing

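Besides leaving out single mice, 205 alternative values were computed for 36 results, and 177 of them kept direction and side of the threshold. With the replicate number as a block, over 5 pairs (smallest exact p 0.0625), neither CDR3 length (0.385, adjusted p = 0.188) nor charge (-0.292, adjusted p = 0.125) passed. The numbers did not pair the mice (correlations of V gene deviations -0.191, -0.0827, 0.238, 0.0886 and -0.170), and the block changed no other call between treatments. Calls lost or turned under other settings were as follows. Length stood at 0.190 and charge at -0.332 with a count of at least 2, and length at 0.158 with lineages, 0.478 weighted by count and 0.242 without clonotypes close to a larger one of another mouse. Against IgG2 by the gene with most counts, mismatches stood at -0.129, unmutated clonotypes at 3.86 and log2 count at -0.69. Against IgM or IgD, mismatches stood at 0.0620 with a count of at least 10. DESeq2 called 1 V gene against IgG2 in place of 0. Why these settings moved the values was not tested.

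Differences that passed no test in either form and changed sign were these. Between treatments, IgG1 of IgG counts stood at -4.19 and clonotypes with IGHE at -1.01 with clonotypes kept in every mouse, CDR replacement at -1.59 with lineages, IGHE at -0.265 from 10% of the IGHG1 count, and IGHG2B at -0.609 without close clonotypes. CDR3 length against IgM or IgD stood at 0.0168 with clonotypes kept in every mouse, 0.0833 and 0.216 with counts of at least 2 and 10, and 0.159 by the gene with most counts, and against IgG2 at -0.287 with a count of at least 10. The treatment contrast of IgG1 minus IgG2 stood at -0.408 for IGHE with clonotypes kept in every mouse, at -0.0698 for mismatches with a count of at least 2, at -0.698 (unmutated) and -2.51 (IGHE) with at least 10, and at -1.64 (unmutated) and -0.31 (log2 count) by the gene with most counts. Against IgG2 without TMM, IGHV1-26 stood at 0.36 and the pair IGHV1-62-3 and IGHV1-72 at 0.34. Between treatments IGHV9-3 stood at 0.15 with lineages, IGHV1-26 at -0.17 without close clonotypes, the pair IGHV1-62-3 and IGHV1-72 at 0.06 with the block, and IGHV14-4 at -0.14 with the block, -0.26 with DESeq2, -0.25 without TMM, -0.30 with lineages and -0.27 without close clonotypes.

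With single mice left out, the difference between treatments ranged from 0.307 to 0.443 for CDR3 length, -0.343 to -0.242 for charge, 11.9 to 21.1 for IGHM or IGHD, -0.553 to 7.47 for heavy-chain counts, -7.19 to 3.57 for IgG clonotypes, -11.6 to 9.82 for IgG counts, -0.117 to 0.0275 for mismatches, -0.137 to 5.76 for hotspots, -0.0204 to 0.0586 for evenness, -6.59 to 0.203 for the leading clonotype and -0.964 to 2.75 for IGHE. CDR3 length ranged from -0.0905 to 0.101 against IgG2 and from -0.0810 to 0.0223 against IgM or IgD. The IGHE contrast of IgG1 minus IgG2 ranged from -0.221 to 3.19, and V genes called against IgG2 from 0 to 1. Between treatments the log2 fold change ranged from -0.29 to 0.53 for IGHV1-26, -0.58 to 0.0092 for the pair IGHV1-62-3 and IGHV1-72, -1.74 to 0.30 for IGHV14-4 and -1.57 to 0.058 for IGHV9-3, and against IgG2 from -0.43 to 0.22 for that pair.

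Depth limits the small compartments most: isotype mouse 5 had 29 IgG1 clonotypes and a count of 279, and counting intervals for its share with IGHE (0.0873% to 17.8%) were wider than the range between mice.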
